A study of Mus musculus with 10 samples.

Results

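The 42 genes described here build the DNA replication machinery and drive the step from G1 into S phase of the cell cycle. They were chosen by their gene symbols, and all 42 were found among the 54337 genes to which the transcripts of the series could be assigned. Sorted tumour-infiltrating CD8 T cells were measured by RNA sequencing in 10 libraries. The cells carried a transgenic receptor for P1A, an antigen of the P511 mastocytoma, and had been activated in culture for 24 h before transduction. They were moved a further 24 h later into Rag1-/- B10D2 mice with P511 tumours and were sorted on day 7 after transfer. The 3 groups were cells overexpressing NFAT5, a factor best known for the osmotic stress response (libraries 1, 5 and 8), cells overexpressing CA-RIT NFAT1, a constitutively active NFAT1 that cannot cooperate with AP-1 (libraries 2, 4, 9 and 10), and cells with the empty-eGFP control vector (libraries 3, 6 and 7). The labels give the strain as C57BL/6 and the recipients as B10D2, and they give no age of the animals. They do not say whether each library came from a separate mouse, and a p-value here therefore speaks only of the spread among libraries, which may be technical.

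Replication is prepared in G1, when the origin recognition complex, Cdc6 and Cdt1 load the MCM ring onto DNA, and it starts when Cdc45 and the GINS complex join that ring to form the moving helicase. DNA polymerase alpha with primase lays down primers, polymerases delta and epsilon extend them on the PCNA clamp, and Fen1 and Lig1 join the Okazaki fragments. Many of these genes are transcribed in G1 and S phase under E2F factors, which cyclin E and its kinase help to release from the Rb protein. In CD8 T cells this programme accompanies clonal expansion after antigen.

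The libraries held 18.8 to 36.6 M estimated reads, except eGFP control 7, which held 51112. In eGFP control 7 the 42 genes had 6 reads in all, and a count of 0 there allows up to 58.7 CPM (the reads of a gene scaled to the library's reads on all genes), a limit that covers counting error only. In CA-RIT NFAT1 10 the 13 T cell markers summed to 340.3 CPM, against 27886 to 43244 CPM in the other 8 libraries of full depth, and the 15 markers of mast cells and P511 summed to 6237 CPM, against 65.2 to 364 CPM. Its 14 macrophage markers summed to 4493 CPM, against 101 to 460.0 CPM, and its 12 dendritic and B cell markers to 5192 CPM, against 189 to 1397 CPM. The comparisons below therefore rest on 8 libraries without these 2, and values with all 10 are given beside them. Nfat5 itself had 87.0, 81.6 and 48.0 CPM in the NFAT5 libraries, 10.7, 4.69 and 3.01 CPM in CA-RIT NFAT1 2, 4 and 9, and 1.12 and 6.88 CPM in eGFP control 3 and 6. The NFAT5 libraries were thus all above the others. Nfatc2, which encodes NFAT1, had 88.8, 63.5, 30.0 and 3.39 CPM in CA-RIT NFAT1 2, 4, 9 and 10, 70.0, 42.3 and 36.6 CPM in NFAT5 and 4.00 and 47.3 CPM in eGFP control 3 and 6. The groups overlapped in this gene, and CA-RIT NFAT1 9 was below eGFP control 6 and each NFAT5 library, so the name CA-RIT NFAT1 stands throughout for libraries that only the labels assign to that vector. Reads of the vector and of the endogenous gene cannot be told apart in these files. In bulk RNA, fewer cycling cells and less RNA of a gene per cell cannot be told apart either.

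All 42 genes had reads in each of the 8 libraries, over a wide range of levels. The deposited TPM values, which take transcript length into account and were summed over the transcripts of a gene, were used to compare genes with each other. Over the 8 libraries Rrm2, the small subunit of ribonucleotide reductase, was highest at 405 ± 131 TPM (SD, n = 8). Tyms, Mcm6, Pcna, Slbp and Rfc2 followed at 343 ± 93.5, 337 ± 90.1, 308 ± 63.8, 306 ± 62.2 and 295 ± 41.7 TPM. At the low end stood Gins3, Pole, Pola1 and Brca1 at 10.9 ± 2.28, 10.2 ± 3.20, 8.59 ± 4.12 and 5.12 ± 3.56 TPM. In all 41 pairs of neighbours in this order the gap between the means was smaller than the larger of the 2 SDs, so the order of neighbours is not resolved.

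For 4 genes over 50% of the TPM sum lay on transcripts that are not protein-coding. On protein-coding transcripts alone Rfc2 had 15.6 ± 1.69 TPM, Gins2 10.3 ± 1.85 TPM, Tyms 71.6 ± 24.6 TPM and Rfc5 61.2 ± 15.0 TPM, which is 5.28%, 11.6%, 20.9% and 47.3% of their full sums. Rrm2, Pcna, Mcm6 and Slbp then led with 399.7, 292, 289.6 and 273 TPM. The catalytic subunits of the replicative polymerases were uneven by this measure of length-corrected level: Pold1, of polymerase delta, had 87.5 ± 28.9 TPM on all transcripts, beside 10.2 TPM for Pole and 8.59 TPM for Pola1.

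**Figure D1:**
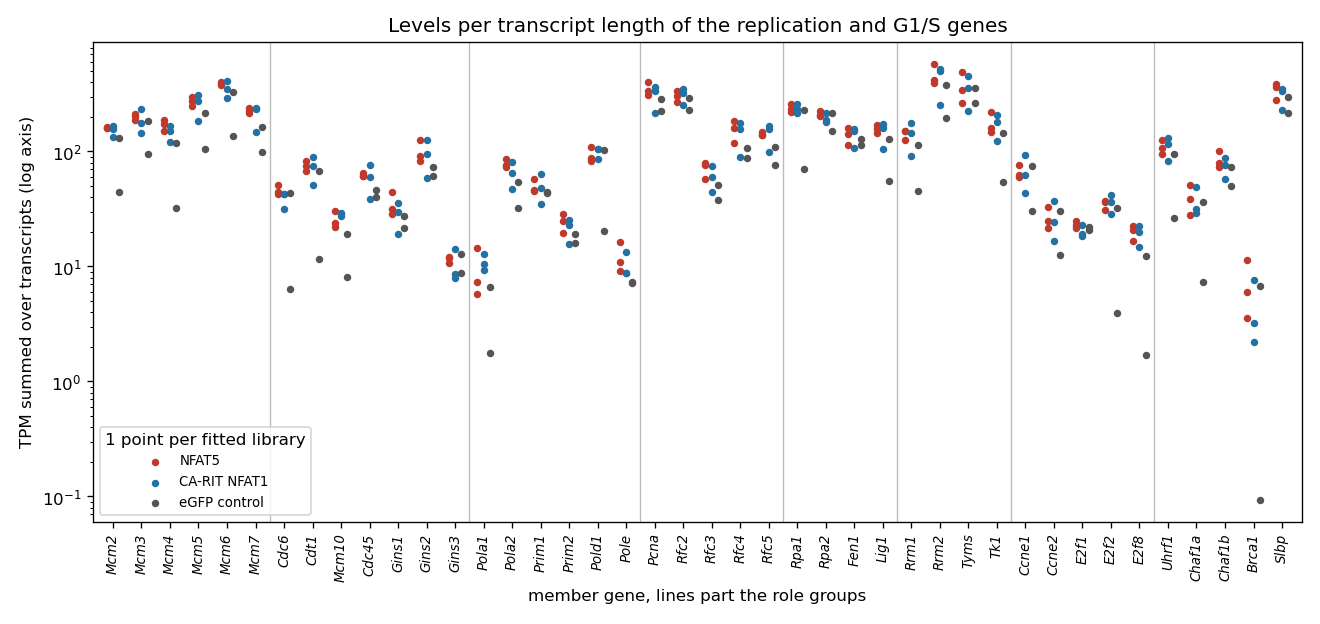
TPM summed over transcripts on a log axis for each of the 42 genes, with 1 point per library, for NFAT5 (3 libraries), CA-RIT NFAT1 (3) and eGFP control (2), and lines between the role groups. Mean levels run between 405 TPM (Rrm2) and 5.12 TPM (Brca1), and the lowest point of many genes is a control library.

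Set against the controls, most of the 42 genes stood on the higher side in NFAT5 cells, but none passed the test. With edgeR's quasi-likelihood test and Benjamini-Hochberg adjustment over 14473 genes, 0 of 42 were called, and 0% of all genes were. The smallest adjusted p among them was 0.654. The log2 fold change was above 0 for 35 of 42, against 53.9% of all genes tested, and its median was 0.54, against 0.08 over all genes. At an unadjusted p below 0.05 the test named 1 of the 42, Mcm4, against 7.26% of all genes. DESeq2 and limma voom called 0 of the 42, while DESeq2 called 97 genes higher and 34 lower in the whole table.

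Counted library by library, the MCM ring and the licensing and clamp genes made up most of those that stood above the controls. In 22 of 42 every NFAT5 library lay above both controls, against 14.2% of all genes, and in 0 of 42 every NFAT5 library lay below both, against 8.15%. All 6 subunits of the MCM ring were among the 22, as were Cdc6, Cdt1, Mcm10 and Cdc45 of 7 licensing and firing factors and Pcna, Rfc3, Rfc4 and Rfc5 of the 5 clamp genes. Measured against eGFP control 6 alone, without eGFP control 3, the count was 26, against 22.5% of all genes. Without eGFP control 6 it was 35, against 44.5%. With all 10 libraries 41 of 42 genes had a fold change above 0, and the median was 0.72.

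In the libraries labelled CA-RIT NFAT1, too, most of the genes stood on the higher side of the controls, and 0 of 42 were called, against 0% of all genes. DESeq2 and limma voom also called 0. The smallest adjusted p by edgeR's quasi-likelihood test was 0.679. The log2 fold change against eGFP control was above 0 for 33 of 42, against 54.6% of all genes, with a median of 0.37, against 0.10 over all genes. An unadjusted p below 0.05 was found for 3 of them, Mcm10, Pola1 and Pole, against 6.44% of all genes. Only 4 of 42 (Mcm10, Pola1, Pole and E2f8) had every CA-RIT NFAT1 library above both controls, against 14.2% of all genes, and 0 had every library below, against 6.67%. That count turns on CA-RIT NFAT1 2: without it 30 of 42 lay above both controls, against 21.2% of all genes. Without eGFP control 3 the count was 5, against 22.5%, and without eGFP control 6 it was 25, against 46.2%. With all 10 libraries it was 2, against 7.51% of all genes, while 34 of the 42 had a fold change above 0 and the median was 0.45. Both comparisons use the same control libraries, so their likeness is not independent.

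No gene of the 42 separated CA-RIT NFAT1 from NFAT5. In CA-RIT NFAT1 against NFAT5 the log2 fold change was above 0 for 5 of 42, against 50.5% of all genes, with a median of -0.14, against 0.00. None had an adjusted p under the threshold (smallest 1.00, edgeR's quasi-likelihood test), against 0% of all genes, and 0 had an unadjusted p below 0.05, against 1.13%. In 0 of 42 did the CA-RIT NFAT1 libraries all lie above the NFAT5 libraries, against 4.06% of all genes, and in 0 all below, against 2.78%. The direction rests on CA-RIT NFAT1 2: without it 27 of 42 were on the higher side and the median was 0.05. With all 10 libraries 4 were on the higher side and the median was -0.24.

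**Figure D2:**
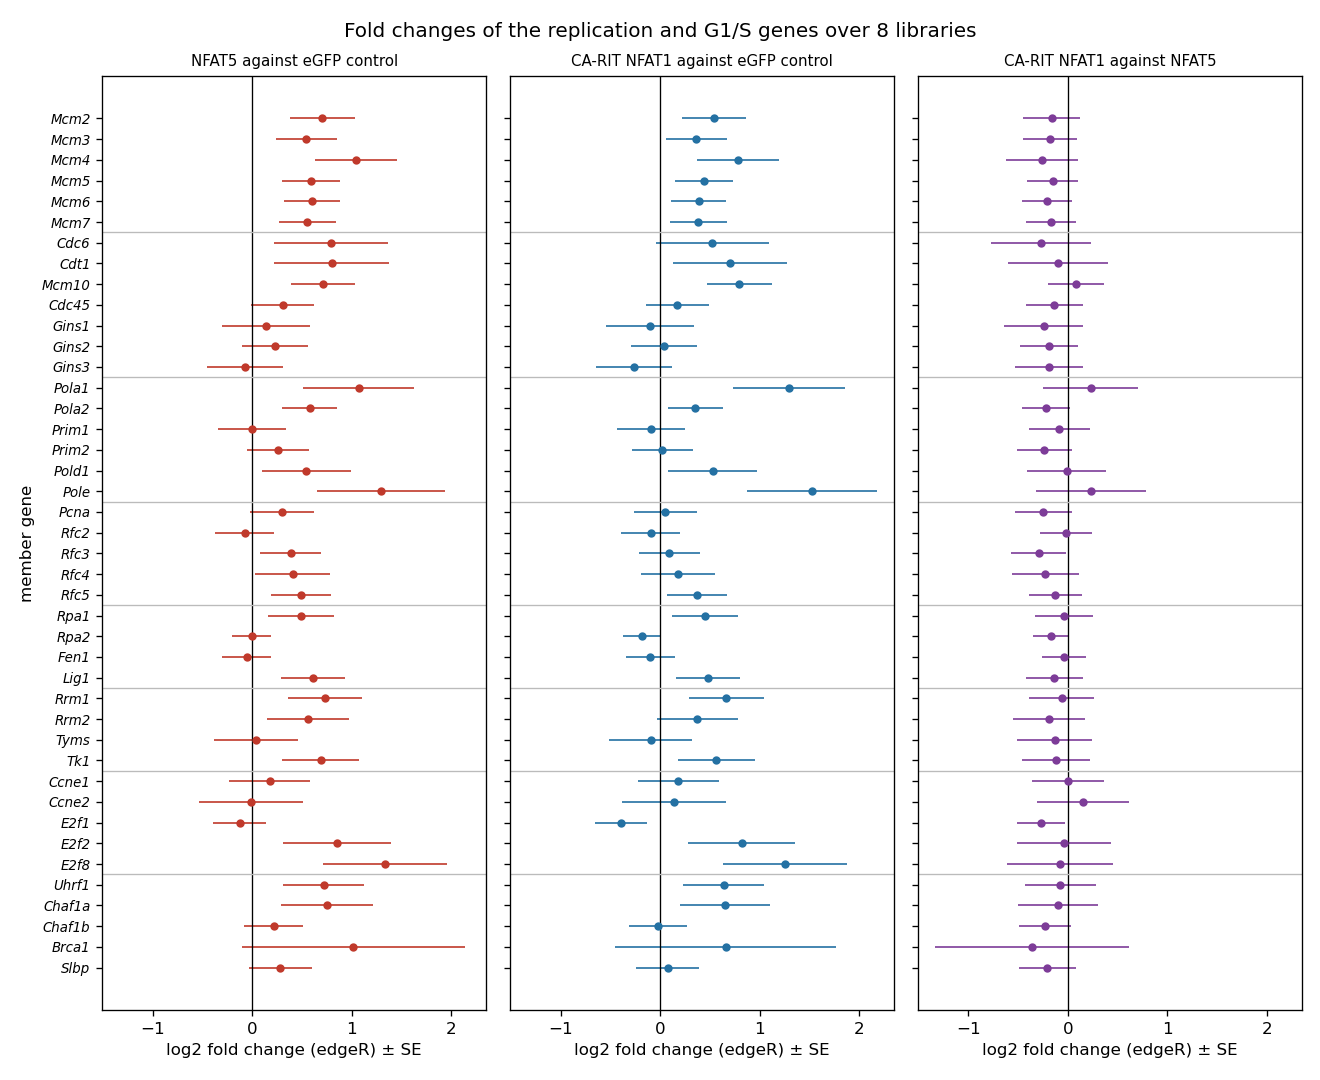
Log2 fold change with its SE (edgeR, 8 libraries) of each gene in NFAT5 against eGFP control, CA-RIT NFAT1 against eGFP control and CA-RIT NFAT1 against NFAT5, with lines between the role groups. In the first panel 35 of 42 points lie above 0, in the second 33, and in the third 5.

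Libraries of the same vector also differed from each other. Of the 42 genes, 25 were lowest in eGFP control 3 (59.5%, against 43.0% of the 9298 genes that averaged 5 CPM or more) and 14 were lowest in CA-RIT NFAT1 2 (33.3%, against 11.3%). NFAT5 8 was highest for 16 (38.1%, against 10.6%), CA-RIT NFAT1 9 for 10 (23.8%, against 11.7%) and CA-RIT NFAT1 4 for 9 (21.4%, against 7.80%). NFAT5 1 was highest for 3 (7.14%, against 16.2%) and eGFP control 3 for 2 (4.76%, against 25.4%). Summed over the 42 genes, the NFAT5 libraries 1, 5 and 8 had 10342, 11279 and 12412 CPM, CA-RIT NFAT1 2, 4 and 9 had 7721, 11508 and 11771 CPM, and eGFP control 3 and 6 had 5907 and 9268 CPM. Each NFAT5 library was above both controls, and CA-RIT NFAT1 2 fell between the controls.

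Without eGFP control 3 the median log2 fold change was 0.30 in NFAT5 and 0.12 in CA-RIT NFAT1, with 37 of 42 genes on the higher side in NFAT5 and 30 in CA-RIT NFAT1. Without eGFP control 6 the medians were 0.80 in NFAT5 and 0.68 in CA-RIT NFAT1. By edgeR, 15 of the 42 genes were then called higher in NFAT5, against 20.6% of all genes called in either direction. Called higher in CA-RIT NFAT1 were 14, against 21.3% of all genes called in either direction. The shares of all genes called higher alone are not given. These calls rest on a lone control library assumed to vary like the other groups. Gene by gene, leaving out eGFP control 3 changed the sign of 6 of 42 fold changes in NFAT5 and 13 in CA-RIT NFAT1, and took a further 20 and 16 down by more than 1.5 times with the sign kept. Leaving out eGFP control 6 took 26 and 29 of them up by more than 1.5 times. Without CA-RIT NFAT1 2 the median in CA-RIT NFAT1 was 0.57, and without CA-RIT NFAT1 9 it was 0.21. The sum of the T cell markers ran the other way, at 27886 to 29422 CPM in NFAT5, 29487 to 35117 CPM in CA-RIT NFAT1 and 34571 and 43244 CPM in the controls. Trbc2 alone had 15593 to 17206 CPM in NFAT5, 17721 to 19307 CPM in CA-RIT NFAT1 and 25613 and 22364 CPM in eGFP control 3 and 6. Single markers differed in direction. In eGFP control 3 Cd3d had 1229 CPM, against 501 to 542 CPM in NFAT5, but Thy1 had 94.3 CPM, against 167 to 187 CPM. All 13 T cell markers were detected in each of these libraries. Mast cell and P511 markers summed to 207 to 289 CPM in NFAT5, 107 to 364 CPM in CA-RIT NFAT1 and 65.2 and 305 CPM in the controls. In these groups 5 to 7, 6 to 7 and 8 of 15 were at 0. Mcpt1, Tpsb2, Tpsab1 and Fcer1a were at 0 in the NFAT5 libraries, but also in CA-RIT NFAT1 10. Cpa3 and Cma1, at 1859 and 1352 CPM in CA-RIT NFAT1 10, had 37.5 to 63.4 and 42.4 to 168 CPM in NFAT5. In eGFP control 3 and 6 Cpa3 had 66.1 and 11.8 CPM, and Cma1 145.5 and 17.1 CPM. Macrophage markers summed to 101 to 242 CPM in NFAT5, 193 to 460.0 CPM in CA-RIT NFAT1 and 223 and 225 CPM in the controls. Dendritic and B cell markers summed to 227 to 327 CPM in NFAT5, 189 to 330.3 CPM in CA-RIT NFAT1, 1397 CPM in eGFP control 3 and 261 CPM in eGFP control 6. The part of these cells in the differences was not tested.

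**Figure D3:**
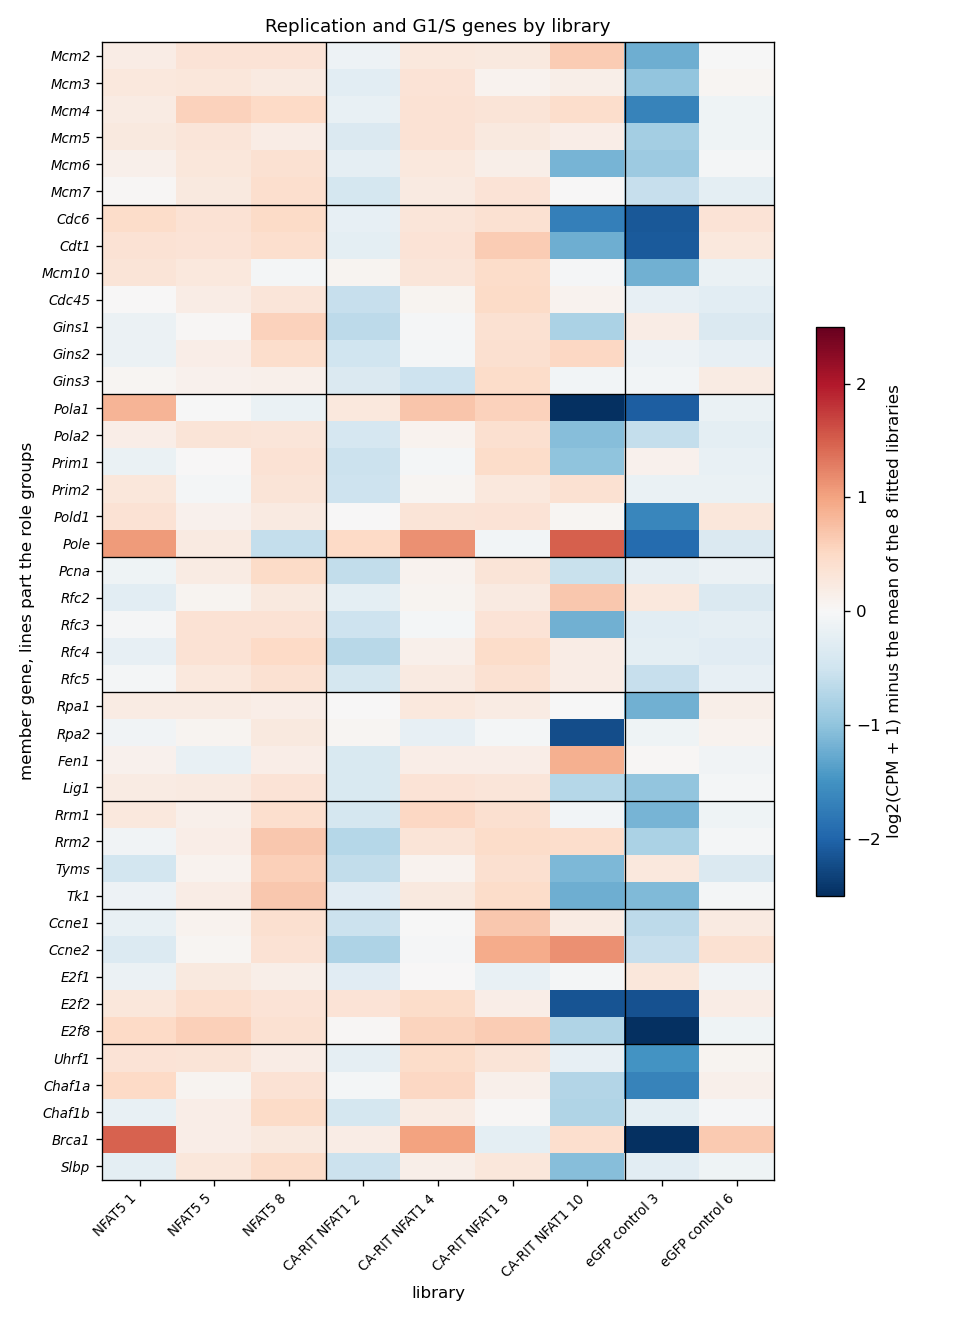
Colour gives log2(CPM + 1) of each gene in each library minus its mean over the 8 fitted libraries, for NFAT5, CA-RIT NFAT1 (with library 10, which did not enter the mean) and eGFP control, with lines between role groups and vectors. The blue column of eGFP control 3 and the paler one of CA-RIT NFAT1 2 mark the lowest library for 25 and 14 of 42 genes.

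The MCM ring, the motor of the replicative helicase, had all its subunits above the controls in NFAT5 cells. The 6 summed to 3946 ± 240.3 CPM in NFAT5 (SD, n = 3), 3488 ± 701 CPM in CA-RIT NFAT1 (n = 3) and 2372 ± 999 CPM in eGFP control (n = 2). Mcm4 had 446, 578 and 544 CPM in NFAT5, 341, 497 and 484 CPM in CA-RIT NFAT1 and 121 and 361 CPM in eGFP control. Its NFAT5 libraries were all above the controls, while CA-RIT NFAT1 2 lay between them. The log2 fold change of Mcm4 was 1.04 ± 0.42 (SE) in NFAT5 and 0.78 ± 0.41 in CA-RIT NFAT1, with adjusted p of 0.654 and 0.679 by edgeR's quasi-likelihood test. Its values were 0.51 in NFAT5 and 0.25 in CA-RIT NFAT1 without eGFP control 3. Without eGFP control 6 they were 1.95 and 1.69, with adjusted p of 0.00559 and 0.00944 by edgeR's quasi-likelihood test.

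Mcm6, another subunit, had 974, 1077 and 1155 CPM in NFAT5, 754, 1065 and 976 CPM in CA-RIT NFAT1 and 472 and 856 CPM in eGFP control. Its log2 fold change was 0.60 ± 0.28 in NFAT5 and 0.39 ± 0.28 in CA-RIT NFAT1, and 0.30 and 0.09 without eGFP control 3. In TPM it exceeded the other subunits in each of the 8 libraries and reached 1.78 to 2.01 times their mean, while the ring itself is known to hold the subunits in equal number. In CA-RIT NFAT1 10, the library with few T cell markers, it was the lowest subunit, at 0.742 times the mean of the others. Mcm2, Mcm3, Mcm5 and Mcm7 had log2 fold changes of 0.54 to 0.70 in NFAT5 and 0.36 to 0.54 in CA-RIT NFAT1, and in none did the NFAT5 libraries overlap the controls. These ranges were 0.18 to 0.47 in NFAT5 and 0.00 to 0.30 in CA-RIT NFAT1 without eGFP control 3. Without eGFP control 6, Mcm2, Mcm3 and Mcm6 passed the threshold in NFAT5 and Mcm2 in CA-RIT NFAT1.

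Promoter sequences are shown for 5 of these genes because they carry the letters that E2F factors are known to bind. RefSeq promoters (build GRCm38.p6, 250 bases before to 50 after the start) were at hand for 35 of the 42 genes. The E2F-like words TTTCCCGC, TTTGGCGC, TTTCGCGC and TTTGCCGC, on either strand, were found in 13 of 35 (37.1%), against 2.6% of 27025 genes and 1 of 27 G2/M genes. The 200 bases before the start follow in capitals where they match, for Mcm6 (chr1:128359706-128359905, minus strand), Mcm5 (chr8:75109309-75109508, plus strand), Mcm7 (chr5:138171884-138172083, minus strand), the licensing factor Cdc6 (chr11:98907951-98908150, plus strand) and the polymerase Pola1 (chrX:93632156-93632355, minus strand).
Mcm6: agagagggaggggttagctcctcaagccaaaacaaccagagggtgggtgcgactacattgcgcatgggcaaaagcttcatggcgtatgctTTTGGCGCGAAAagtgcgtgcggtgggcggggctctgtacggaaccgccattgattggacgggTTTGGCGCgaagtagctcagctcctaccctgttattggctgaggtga
Mcm5: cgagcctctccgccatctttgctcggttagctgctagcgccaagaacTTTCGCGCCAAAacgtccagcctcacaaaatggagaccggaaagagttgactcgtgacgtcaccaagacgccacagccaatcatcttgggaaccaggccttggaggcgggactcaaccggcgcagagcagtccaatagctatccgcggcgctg
Mcm7: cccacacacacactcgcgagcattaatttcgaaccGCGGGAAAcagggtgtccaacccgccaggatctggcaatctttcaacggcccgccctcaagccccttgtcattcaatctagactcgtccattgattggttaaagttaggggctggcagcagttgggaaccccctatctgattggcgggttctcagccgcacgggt
Cdc6: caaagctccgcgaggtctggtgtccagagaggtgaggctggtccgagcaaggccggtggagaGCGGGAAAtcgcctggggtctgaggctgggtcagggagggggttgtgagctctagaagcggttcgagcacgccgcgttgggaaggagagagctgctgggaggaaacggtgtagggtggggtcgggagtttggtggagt
Pola1: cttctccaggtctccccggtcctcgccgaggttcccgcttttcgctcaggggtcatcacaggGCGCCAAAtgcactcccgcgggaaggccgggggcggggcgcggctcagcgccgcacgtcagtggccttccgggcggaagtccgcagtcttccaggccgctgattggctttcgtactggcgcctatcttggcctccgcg
In Mcm6 and Mcm5 a pair of matches on opposite strands overlap in a run of capitals of 12 bases, and Mcm6 holds 3 matches in all. CCAAT, on either strand, was found in 22 of 35 (62.9%), against 41.1% of all genes and 22 of 27 G2/M genes (81.5%). The words TTTGAA and TTCGAA of the CHR element, known from G2/M promoters, were in 8 of 35 (22.9%), against 21.7% of all genes and 20 of 27 G2/M genes (74.1%). A match is a run of letters and not a measured binding site.

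The licensing and firing factors split in 2 by their level in eGFP control 3. Cdc6 and Cdt1, which load the ring, and Mcm10, which helps to activate it, stood low in eGFP control 3. Cdc6 had 133, 124 and 134 CPM in NFAT5, 82.9, 119 and 125 CPM in CA-RIT NFAT1 and 21.5 and 122 CPM in eGFP control. Cdt1 had 119.7, 119 and 125 CPM in NFAT5, 79.1, 118 and 145 CPM in CA-RIT NFAT1 and 20.9 and 112 CPM in eGFP control. For both genes eGFP control 6 came close to the NFAT5 libraries, and CA-RIT NFAT1 2 lay below it. Cdc6 had a log2 fold change of 0.79 ± 0.57 in NFAT5 and 0.53 ± 0.57 in CA-RIT NFAT1, and 0.07 and -0.20 without eGFP control 3. Cdt1 had one of 0.80 ± 0.58 in NFAT5 and 0.70 ± 0.57 in CA-RIT NFAT1, and 0.08 and -0.01 without eGFP control 3. Both genes passed the threshold in both comparisons without eGFP control 6, at 2.17 to 2.43.

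Mcm10 had 79.3, 75.8 and 60.7 CPM in NFAT5, 66.3, 77.7 and 86.5 CPM in CA-RIT NFAT1 and 26.7 and 55.8 CPM in eGFP control. Every library of either factor was above both controls. The log2 fold change was 0.71 ± 0.32 in NFAT5 and 0.80 ± 0.32 in CA-RIT NFAT1, with adjusted p of 0.654 and 0.679 by edgeR's quasi-likelihood test. Without eGFP control 3 these were 0.34 and 0.42, and without eGFP control 6 they were 1.26 and 1.35 and passed the threshold. Gins2, of the GINS complex, had 58.4, 72.0 and 87.6 CPM in NFAT5, 45.4, 62.3 and 85.2 CPM in CA-RIT NFAT1 and 59.1 and 56.0 CPM in eGFP control. These libraries overlapped, with log2 fold changes of 0.23 ± 0.33 in NFAT5 and 0.04 ± 0.33 in CA-RIT NFAT1. Gins1 and Gins3, of the same complex, had 0.14 ± 0.45 and -0.07 ± 0.38 in NFAT5 and -0.10 ± 0.44 and -0.26 ± 0.38 in CA-RIT NFAT1. Gins1 had 0.55 and 0.31 without eGFP control 3. Cdc45 was not low in eGFP control 3, with 97.0 CPM against 93.4 CPM in eGFP control 6. For Cdc45 the log2 fold change was 0.31 ± 0.32 in NFAT5 and 0.17 ± 0.32 in CA-RIT NFAT1, and 0.42 and 0.28 without eGFP control 3.

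Among the polymerases the catalytic subunits Pola1 and Pole had the largest fold changes in read counts, and also the widest spread. Pola1 had 73.2, 40.1 and 35.6 CPM in NFAT5, 48.8, 65.6 and 60.4 CPM in CA-RIT NFAT1 and 8.91 and 35.9 CPM in eGFP control. The lowest NFAT5 library was level with eGFP control 6, while CA-RIT NFAT1 2, 4 and 9 were above both controls. The log2 fold change of Pola1 was 1.07 ± 0.55 in NFAT5 and 1.30 ± 0.56 in CA-RIT NFAT1. For Pola1 it was 0.43 and 0.66 without eGFP control 3, and without eGFP control 6 it was 2.30 and 2.53 and passed the threshold in both.

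Pole had 71.3, 39.4 and 21.7 CPM in NFAT5, 47.9, 75.4 and 31.9 CPM in CA-RIT NFAT1 and 8.11 and 25.8 CPM in eGFP control. NFAT5 8 fell below eGFP control 6 here, although that NFAT5 library was the highest for 16 of the 42 genes. The log2 fold change of Pole was 1.29 ± 0.65 in NFAT5 and 1.52 ± 0.65 in CA-RIT NFAT1, with adjusted p of 0.654 and 0.679 by edgeR's quasi-likelihood test. It was 0.74 and 0.97 without eGFP control 3, and both values were over 1.5 times as large without eGFP control 6, where Pole passed the threshold in CA-RIT NFAT1 (adjusted p 0.0454, edgeR's quasi-likelihood test) but not in NFAT5 (0.0608). Pold1 had 284, 239 and 261 CPM in NFAT5, 223, 278 and 282 CPM in CA-RIT NFAT1 and 70.9 and 270.5 CPM in eGFP control, so that eGFP control 6 lay within both vector groups. Its log2 fold changes of 0.54 ± 0.45 in NFAT5 and 0.53 ± 0.45 in CA-RIT NFAT1 were -0.07 and -0.09 without eGFP control 3, and 1.72 and 1.70, past the threshold, without eGFP control 6. The primase subunits Prim1 and Prim2 had 0.00 ± 0.34 and 0.26 ± 0.31 in NFAT5 and -0.09 ± 0.34 and 0.02 ± 0.31 in CA-RIT NFAT1. Pola2 had 0.58 ± 0.28 in NFAT5 and 0.36 ± 0.28 in CA-RIT NFAT1, and 0.49 and 0.27 without eGFP control 3.

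Pcna, the sliding clamp, had 389.5, 487 and 591 CPM in NFAT5, 274, 449 and 524 CPM in CA-RIT NFAT1 and 359 and 382 CPM in eGFP control. The NFAT5 libraries were above both controls by a small margin, and CA-RIT NFAT1 2 was below them. For Pcna the log2 fold change was 0.30 ± 0.32 in NFAT5 and 0.05 ± 0.32 in CA-RIT NFAT1. The clamp loader subunits Rfc3, Rfc4 and Rfc5 had 0.39 to 0.49 in NFAT5 and 0.09 to 0.37 in CA-RIT NFAT1, while Rfc2 had -0.08 ± 0.29 in NFAT5 and -0.10 ± 0.29 in CA-RIT NFAT1, and 0.37 and 0.35 without eGFP control 3.

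Rpa1, the large subunit of the single-strand binding complex, had 491, 494 and 475 CPM in NFAT5, 427, 513 and 494 CPM in CA-RIT NFAT1 and 184 and 472 CPM in eGFP control. Apart from eGFP control 3 these libraries were nearly level, and the log2 fold changes of 0.49 ± 0.33 in NFAT5 and 0.45 ± 0.33 in CA-RIT NFAT1 were 0.02 and -0.02 without it. They were 1.24 and 1.20, past the threshold, without eGFP control 6. Rpa2, its smaller partner, had 315, 351 and 398 CPM in NFAT5, 346, 289 and 321 CPM in CA-RIT NFAT1 and 308 and 355 CPM in eGFP control. Here eGFP control 3 lay within the range of the other libraries. Lig1, which seals the fragments, had 0.61 ± 0.32 in NFAT5 and 0.48 ± 0.32 in CA-RIT NFAT1, with 0.28 and 0.15 without eGFP control 3. Fen1, which trims them, had -0.05 ± 0.25 in NFAT5 and -0.10 ± 0.25 in CA-RIT NFAT1.

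Rrm2, the regulated subunit of the enzyme that makes deoxynucleotides, had 657, 776 and 1114 CPM in NFAT5, 426, 868 and 955 CPM in CA-RIT NFAT1 and 403 and 676 CPM in eGFP control. The groups overlapped, and CA-RIT NFAT1 2 stood near eGFP control 3. Rrm2 had a log2 fold change of 0.56 ± 0.41 in NFAT5 and 0.37 ± 0.41 in CA-RIT NFAT1, and of 0.31 and 0.12 without eGFP control 3. Rrm1, the large subunit, had 0.73 ± 0.37 in NFAT5 and 0.67 ± 0.37 in CA-RIT NFAT1, and Tk1, thymidine kinase, 0.69 ± 0.39 in NFAT5 and 0.57 ± 0.38 in CA-RIT NFAT1. Rrm1 had 0.36 and 0.29, and Tk1 0.32 and 0.20, without eGFP control 3.

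Tyms, which makes thymidylate, had 155, 228 and 324 CPM in NFAT5, 140.0, 227 and 284 CPM in CA-RIT NFAT1 and 257 and 166 CPM in eGFP control. Unlike most of the 42 genes it was higher in eGFP control 3 than in eGFP control 6. The fold change on the log2 scale was 0.04 ± 0.42 in NFAT5 and -0.10 ± 0.42 in CA-RIT NFAT1. It was 0.49 and 0.35 without eGFP control 3, and -0.29 and -0.42 without eGFP control 6.

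Ccne1, cyclin E1, had 101, 122 and 153 CPM in NFAT5, 79.2, 115 and 186 CPM in CA-RIT NFAT1 and 72.9 and 136 CPM in eGFP control, all overlapping. Its log2 fold change was 0.18 ± 0.41 in both comparisons, and Ccne2, cyclin E2, had -0.01 ± 0.52 in NFAT5 and 0.14 ± 0.52 in CA-RIT NFAT1. Without eGFP control 3 Ccne1 had -0.14 and -0.13, and Ccne2 -0.36 and -0.21. E2f1, an activator, had 51.6, 68.0 and 63.5 CPM in NFAT5, 46.5, 57.0 and 50.2 CPM in CA-RIT NFAT1 and 69.1 and 53.7 CPM in eGFP control. The groups overlapped, with log2 fold changes of -0.12 ± 0.27 in NFAT5 and -0.39 ± 0.26 in CA-RIT NFAT1, and 0.16 and -0.11 without eGFP control 3.

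E2f8, a repressor of E2F targets, had 67.5, 72.0 and 61.9 CPM in NFAT5, 48.1, 69.8 and 73.5 CPM in CA-RIT NFAT1 and 7.01 and 43.9 CPM in eGFP control. Among the 8 compared libraries, all those with either factor were above both controls, but E2f8 had only 27.7 CPM in CA-RIT NFAT1 10. Its log2 fold change was 1.34 ± 0.62 in NFAT5 and 1.25 ± 0.62 in CA-RIT NFAT1, with unadjusted p of 0.0628 and 0.0766 by edgeR's quasi-likelihood test. It was 0.59 in NFAT5 and 0.50 in CA-RIT NFAT1 without eGFP control 3. Without eGFP control 6 it was 3.09 and 3.01, with adjusted p of 0.00148 and 0.00167 by edgeR's quasi-likelihood test. E2f2, an activator, had 0.86 ± 0.54 in NFAT5 and 0.82 ± 0.54 in CA-RIT NFAT1. For E2f2 these were 0.14 and 0.10 without eGFP control 3, and 2.42 and 2.39, past the threshold, without eGFP control 6.

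In the last role group, Uhrf1, which recruits maintenance DNA methylation, and Chaf1a, a histone chaperone subunit, had 0.72 ± 0.41 and 0.75 ± 0.46 in NFAT5 and 0.64 ± 0.41 and 0.65 ± 0.46 in CA-RIT NFAT1. Without eGFP control 3 Uhrf1 had 0.19 in NFAT5 and 0.12 in CA-RIT NFAT1, and Chaf1a 0.15 and 0.06. Both passed the threshold without eGFP control 6, Uhrf1 at 1.61 and 1.54 and Chaf1a at 1.85 and 1.75. Chaf1b, the partner of Chaf1a, had 0.22 ± 0.29 in NFAT5 and -0.02 ± 0.29 in CA-RIT NFAT1. Slbp, which binds the end of histone messages, had 377, 542 and 609 CPM in NFAT5, 306, 490.1 and 542 CPM in CA-RIT NFAT1 and 371 and 411 CPM in eGFP control. Only NFAT5 1 fell between the controls among the NFAT5 libraries, and the log2 fold change was 0.28 ± 0.32 in NFAT5 and 0.08 ± 0.32 in CA-RIT NFAT1. Brca1, a repair factor, had 55.2, 21.9 and 23.0 CPM in NFAT5, 22.05, 39.7 and 16.2 CPM in CA-RIT NFAT1 and 0.821 and 30.8 CPM in eGFP control, the widest ratio between the controls of any of the 42. Its log2 fold change was 1.02 ± 1.12 in NFAT5 and 0.66 ± 1.11 in CA-RIT NFAT1, and 0.08 and -0.28 without eGFP control 3. Without eGFP control 6 it was 5.16 and 4.80 and passed the threshold.

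The genes low in eGFP control 3 were mostly the longer ones. In log2(CPM + 1), eGFP control 3 minus eGFP control 6 was below 0 for 32 of 42 genes, with a median of -0.80 and extremes of -4.13 (Brca1) and 0.63. Of 20 genes with a mean effective length of at least 2000 bases, 19 were below 0, with a median of -1.38, and E2f1 was the exception. Of the 22 shorter genes 13 were below 0, with a median of -0.12. Across the 42 genes, Spearman's rho between effective length and the level in eGFP control 3 over the mean of the other 7 libraries was -0.74, against -0.50 across 9298 genes. This is a description across genes of shared libraries.

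Other libraries carried the same relation in either direction. In NFAT5 1, 5 and 8 rho over the 42 genes was 0.81, 0.23 and -0.51, in CA-RIT NFAT1 2, 4 and 9 it was 0.69, 0.75 and -0.26, and in eGFP control 6 it was 0.40. Across 9298 genes rho was 0.63, -0.02 and -0.23 in the NFAT5 libraries, 0.47, 0.47 and -0.09 in the CA-RIT NFAT1 libraries and 0.20 in eGFP control 6. In eGFP control 3, 6.13% of the reads of the 42 genes lay on transcripts with a retained intron, against at most 4.62% in the other 7 libraries. The part of length in the fold changes was not tested. A fit with average transcript length offsets gave medians of 0.52 in NFAT5 and 0.35 in CA-RIT NFAT1. Those offsets adjust only for shifts in the length of a gene between libraries. They cannot address a relation across genes of different length.

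**Figure D4:**
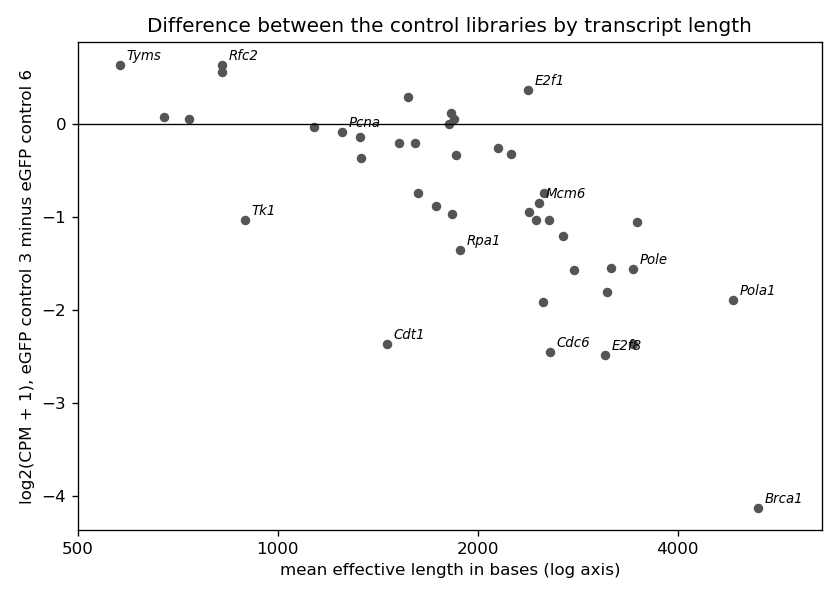
For each of the 42 genes, the difference in log2(CPM + 1) of eGFP control 3 minus eGFP control 6 against mean effective length in bases on a log axis. Of the 20 genes at or above 2000 bases 19 lie below 0, while the 22 shorter ones centre on a median of -0.12.

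Other genes of the same process also lay mostly on the higher side of the controls. Of 39 further replication genes edgeR's quasi-likelihood test called 0 in any of the 3 comparisons, and 3 in NFAT5 and 4 in CA-RIT NFAT1 against eGFP control had an unadjusted p below 0.05, beside 7.26% and 6.44% of all genes. Their log2 fold change was above 0 for 31 in NFAT5 (median 0.39) and for 27 in CA-RIT NFAT1 (median 0.19) against eGFP control, beside 53.9% and 54.6% of all genes. DESeq2 called 1 of the 39, Clspn, in NFAT5 and 0 in CA-RIT NFAT1, and limma voom called 0. In 14 of them every NFAT5 library lay above both controls, against 14.2% of all genes. Orc1, a subunit of the origin recognition complex, had 33.1, 37.8 and 49.6 CPM in NFAT5, 18.9, 38.7 and 34.8 CPM in CA-RIT NFAT1 and 5.91 and 16.5 CPM in eGFP control. All NFAT5 and CA-RIT NFAT1 libraries were above both controls. Clspn, a checkpoint mediator at the fork, had log2 fold changes of 1.21 ± 0.34 in NFAT5 and 1.06 ± 0.34 in CA-RIT NFAT1.

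Of 27 further G1/S regulators the same test called 0, with an unadjusted p below 0.05 for 3 in NFAT5 and 3 in CA-RIT NFAT1 against eGFP control (7.26% and 6.44% of all genes), and DESeq2 and limma voom called 0. Of the 27, 20 were above 0 in NFAT5 (median 0.48) and 18 in CA-RIT NFAT1 (median 0.31), beside 53.9% and 54.6% of all genes. Cdkn1a, which encodes the cell cycle inhibitor p21, was among those below 0, with 152, 79.8 and 94.9 CPM in NFAT5, 73.5, 99.3 and 116 CPM in CA-RIT NFAT1 and 344 and 145 CPM in eGFP control. NFAT5 1 lay between the controls, and CA-RIT NFAT1 2, 4 and 9 were below both. Its log2 fold change was -1.31 ± 0.43 in NFAT5 and -1.49 ± 0.43 in CA-RIT NFAT1, with adjusted p of 0.654 and 0.679 by edgeR's quasi-likelihood test, and -0.45 and -0.63 without eGFP control 3. Rb1, which encodes the Rb protein, had 1.12 ± 0.43 in NFAT5 and 1.32 ± 0.43 in CA-RIT NFAT1.

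Relative to genes of the later G2/M phase, the replication genes had a smaller sum in CA-RIT NFAT1 cells than in NFAT5 or control cells. The 35 G2/M genes had log2 fold changes above 0 for 35 of 35 in both comparisons with eGFP control (53.9% and 54.6% of all genes), with a median of 0.80 in each and 0 called by edgeR's quasi-likelihood test (10 in NFAT5 and 14 in CA-RIT NFAT1 at an unadjusted p below 0.05, against 7.26% and 6.44% of all genes). DESeq2 called 0 of the 35 in NFAT5 and 1, the proliferation marker Mki67, in CA-RIT NFAT1, and limma voom 0. The sum of the 42 genes over the sum of these 35, in CPM, was 1.81, 1.72 and 1.62 in NFAT5, 1.47, 1.51 and 1.54 in CA-RIT NFAT1 and 1.82 and 2.03 in eGFP control. The CA-RIT NFAT1 ratios were below those of every NFAT5 and control library, with means of 1.72 ± 0.10 in NFAT5 (SD, n = 3), 1.51 ± 0.03 in CA-RIT NFAT1 (n = 3) and 1.92 ± 0.15 in eGFP control (n = 2). In TPM the ratios were 1.63, 1.46 and 1.40 in NFAT5, 1.29, 1.31 and 1.34 in CA-RIT NFAT1 and 1.46 and 1.68 in eGFP control, again lowest in CA-RIT NFAT1. CA-RIT NFAT1 10, of few T cell markers, had 1.72 in CPM and 1.68 in TPM and lay within the NFAT5 range in CPM. These ratios are a description, since both lists were chosen with results of these data known.

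**Figure D5:**
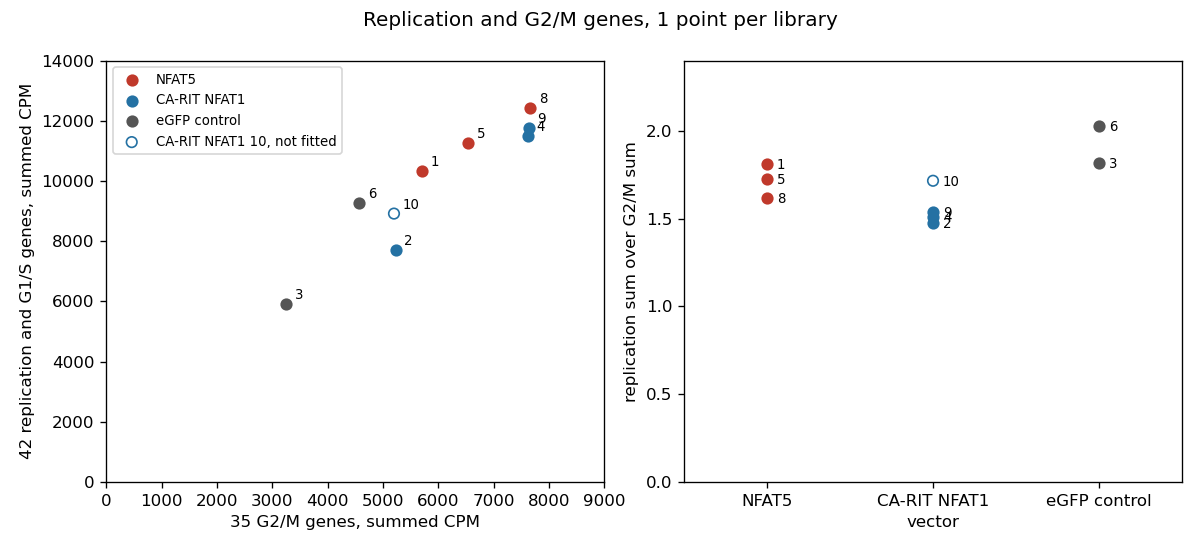
Left, summed CPM of the 42 replication and G1/S genes against summed CPM of 35 G2/M genes, and right, the ratio of these sums by vector, with 1 point per library numbered as in the text. The filled CA-RIT NFAT1 points lie at 1.47 to 1.54, below the NFAT5 points at 1.62 to 1.81 and the control points at 1.82 and 2.03, and the open point of CA-RIT NFAT1 10 lies at 1.72.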

How the data were processed

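Total RNA of sorted CD8 T cells was sequenced in 10 libraries. Transcripts were quantified with Salmon 0.14.1 on mm10 and GRCm38.p6, per the submitters' processing notes; for trimming and options the entry is not given in the sources used here. The deposited tables hold estimated counts, TPM and effective lengths per transcript, per the file headers. The release was inferred: 139966 of 140919 transcripts matched GENCODE M21, 99.9% of them with the same length, and the 953 others held at most 0.292% of reads.

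Deposited estimated counts were summed by gene, rounded and tested with edgeR 4.0.16 in R 4.3.3 (quasi-likelihood fit, TMM, default low-count filter, 3 groups in 1 fit, Benjamini-Hochberg adjustment over 14473 genes, threshold 0.05). All 42 genes passed the filter. Each SE is the fold change over the root of its F value. CPM divide a gene's reads by the reads on all matched genes, and log2 levels add a pseudocount of 1. Deposited TPM served to compare genes, and stood beside CPM for the ratios to G2/M genes and for Pole. The fit left out eGFP control 7, for its depth, and CA-RIT NFAT1 10, for its markers.

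The members, lists, libraries and tests were chosen with earlier results of these data known. Genes described in full were those with an unadjusted p below 0.05 in any comparison and the highest in TPM of each role group, and further genes were chosen after their values were seen. Alternatives were all 10 libraries, RLE scaling, 2 other low-count filters, DESeq2 1.42.0, limma 3.58.1 voom with quality weights, only the compared groups, transcript length offsets, protein-coding genes, and each library left out. The fit was also run on simulated data with a smaller spread than edgeR found in these libraries. That run therefore cannot tell how many true changes the fit would miss here.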

Additional observations from a re-analysis of the deposited data

Results flagged for a closer look

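Rrm2 in CA-RIT NFAT1 2, at 425.8 CPM, lay apart from the other CA-RIT NFAT1 libraries. Its gap to the nearest, divided by the range of the 4, was 0.835 against a critical value of 0.829. The 4 include CA-RIT NFAT1 10 (949 CPM), which the comparisons leave out, and eGFP control 3 was lower still, at 403 CPM. The flag on CA-RIT NFAT1 2 was 1 such case among 13 quantities tested, and chance gives about 1 in 20.

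Data outside the comparisons also held reads on these genes. In CA-RIT NFAT1 10, where T cell markers summed to 340.3 CPM and mast cell, macrophage and dendritic or B cell markers to 6237, 4493 and 5192 CPM, 17 of 42 genes were above both eGFP control 3 and eGFP control 6. Of the 42, 7 were above all 8 compared libraries (Mcm2, Gins2, Prim2, Pole, Rfc2, Fen1 and Ccne2) and 11 were below all 8, among them Mcm6 at 394 CPM, Pola1 at 0.0616 CPM and Rpa2 at 70.6 CPM. No share over all genes stands beside these counts, so they show nothing particular to the 42 genes. In eGFP control 7, 6 reads fell on the 42 genes, and 38 of them had none.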

How the results depend on the processing

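No member was called by edgeR's quasi-likelihood test in any comparison except without eGFP control 6, where 15 were called in NFAT5 and 14 in CA-RIT NFAT1 against eGFP control (0 to 15 and 0 to 14 over libraries left out). Members on the higher side in CA-RIT NFAT1 against NFAT5 numbered 5, but 8 with limma voom, 3 with average transcript length offsets and 3 to 27 over libraries left out. Members above the controls without overlap were an alternative chosen after seeing the data. Over libraries left out they numbered 24 to 35 in NFAT5, against 19.3% to 44.5% of all genes. In CA-RIT NFAT1 they numbered 4 to 30, against 19.8% to 46.2%. With all 10 libraries they numbered 22 and 2, against 14.1% and 7.51% of all genes. In CA-RIT NFAT1 against eGFP control, the log2 fold change of Gins2 was -0.0103 with limma voom and -0.22 to 0.27 over libraries left out. The same range was -0.0878 to 1.70 for Pold1, -0.15 to 0.31 for Pcna, -0.0213 to 1.20 for Rpa1, -0.21 to 0.62 for Ccne1 and -0.0928 to 0.32 for Slbp. In NFAT5 against eGFP control it was -0.0746 to 1.72 for Pold1 and -0.14 to 0.62 for Ccne1. The cause was not tested. Of the other values of the 12 genes described in full by rule, 383 kept direction and side of the threshold, and 12 passed it without eGFP control 6. Over all 42 genes, 6 fold changes in NFAT5 and 13 in CA-RIT NFAT1 against eGFP control changed sign without eGFP control 3, and 5 and 3 without eGFP control 6. No paired analysis was made, because the labels do not pair libraries across the groups. edgeR put the biological coefficient of variation at 0.725 in 8 libraries and at 0.934 in 10, and 2 control libraries limit every comparison with eGFP.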

Other observations

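The reads of E2f8 were divided between a pair of protein-coding transcripts. E2f8-202 took 26.5%, 49.9% and 59.7% of them in the NFAT5 libraries, 14.6%, 40.9% and 18.7% with CA-RIT NFAT1 (2, 4 and 9) and 4.94% and 15.9% with the control vector (3 and 6). Each NFAT5 library was above both controls, the NFAT5 and CA-RIT NFAT1 libraries overlapped, and the difference was not tested. For Pole, the long transcript Pole-201 held 69.2% to 93.3% of reads with NFAT5, 76.7% to 95.5% with CA-RIT NFAT1, none of the reads of eGFP control 3 and 88.5% of those of eGFP control 6. Rfc2 placed most of its reads outside its coding transcript in each of the 8 libraries, with Rfc2-204, a transcript with a retained intron, at 36.6% to 37.8% in NFAT5, 36.7% to 39.5% with CA-RIT NFAT1 and 38.0% to 38.2% in the controls. These shares are estimates of Salmon among overlapping transcripts.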
